A study of Mus musculus with 4 samples.

Results

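The 43 collagen genes measured here are those with a symbol of the form Col, a number, a and a number, out of 33924 gene symbols, and each is the gene for 1 chain of a collagen. RNA-seq was performed on freshly sorted Lin−LEPR+ bone marrow cells, a population that holds the skeletal stem and progenitor cells of the marrow, from WT C57Bl/6 mice. Mature mice were 3 months old and elderly mice were 24 months old. The study's methods describe long bone marrow of male mice depleted of cells with the markers Ter119, CD31 and CD45 and sorted for the leptin receptor, whereas the labels name the source only as whole bone marrow. There were 2 libraries per age. The extraction notes describe RNA of 3 to 4 mice for each group, whereas the titles number the libraries of each age as mouse 1 and mouse 2. Whether a library stands for a pool or for a single animal is therefore not given, and p-values measure only the spread between these libraries. The labels give poly(A) RNA for all 4, and the methods except from poly(A) selection samples with names that these labels do not carry (14wk AMB and HU MSC), so that whether a mature library was made from total RNA cannot be told.

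Every collagen chain carries a stretch in which glycine recurs at a fixed interval, and 3 such chains wind into a triple helix. Fibrillar collagens (types I, II, III, V, XI, XXIV and XXVII) form the banded fibrils of bone, skin and cartilage, and type IV forms the sheet of basement membranes. FACIT collagens sit on the surface of fibrils, type VI forms beaded filaments around cells, and types VIII and X are short chains that build lattices. In bone, type I collagen is the bulk of the organic matrix, and type X collagen marks cartilage that is about to be replaced by bone.

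The regular glycine codons can be read from the coding sequences, which are shown for 1 gene of the abundant basement membrane class, for the chains of type VIII, and for the called genes whose coding transcripts had counts. Each is 90 bases of the longest run, taken from the GENCODE M1 coding transcript, and the capitals mark the glycine codons (GGN) at every 3rd codon.
Col1a1 (fibrillar, coding bases 502 to 591): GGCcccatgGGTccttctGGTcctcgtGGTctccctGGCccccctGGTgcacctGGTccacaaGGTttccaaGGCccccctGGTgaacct
Col4a1 (basement membrane, coding bases 127 to 216): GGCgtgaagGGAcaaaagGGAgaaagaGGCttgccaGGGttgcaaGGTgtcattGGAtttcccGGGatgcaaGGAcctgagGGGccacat
Col8a1 (short chain, coding bases 1054 to 1143): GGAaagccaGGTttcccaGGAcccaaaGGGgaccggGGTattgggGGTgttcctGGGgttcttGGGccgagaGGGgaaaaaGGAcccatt
Col8a2 (short chain, coding bases 934 to 1023): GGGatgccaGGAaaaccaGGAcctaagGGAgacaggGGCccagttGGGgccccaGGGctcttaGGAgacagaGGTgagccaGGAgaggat
Col10a1 (short chain, coding bases 895 to 984): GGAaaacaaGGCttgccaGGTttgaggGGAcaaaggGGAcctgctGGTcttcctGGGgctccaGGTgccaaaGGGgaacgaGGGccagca
Col25a1 (transmembrane, coding bases 1585 to 1674): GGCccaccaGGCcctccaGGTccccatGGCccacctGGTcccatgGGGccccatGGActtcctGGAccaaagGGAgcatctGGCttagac
The longest run without a break held 338 triplets in Col1a1, 40 in Col4a1, 61 in Col8a1, 60 in Col8a2, 61 in Col10a1 and 40 in Col25a1. Over the classes it ranged from 216 to 344 triplets in the 11 fibrillar genes, from 39 to 66 in the 6 basement membrane genes, from 32 to 113 in the 9 FACIT genes and from 40 to 56 in the 4 transmembrane genes. The fibrillar run was thus longer than that of any gene of these other classes.

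The counts were deposited per transcript, and a base that lies in exons of more than 1 transcript carried none: each of the 25621 transcripts that lack such a private base was at 0 counts throughout. Bases that belong to a single transcript are called countable here. Collagen genes differed widely in this respect, from 0.0954% of their exonic bases in Col20a1 to 100% in Col8a1 and Col6a5, with a median of 35.6%. In 12 of the 43 genes no coding base was countable, so that any count came from untranslated ends or from transcripts annotated without a protein product, such as retained introns and processed transcripts. Of the 38 genes with counts, 10 drew less than 50% of them from coding transcripts, among them Col2a1 (0%), Col1a2 (7.34%), Col11a1 (15%), Col9a3 (27.3%) and Col27a1 (46.6%). A low count of such a gene does not show low expression.

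**Figure D1:**
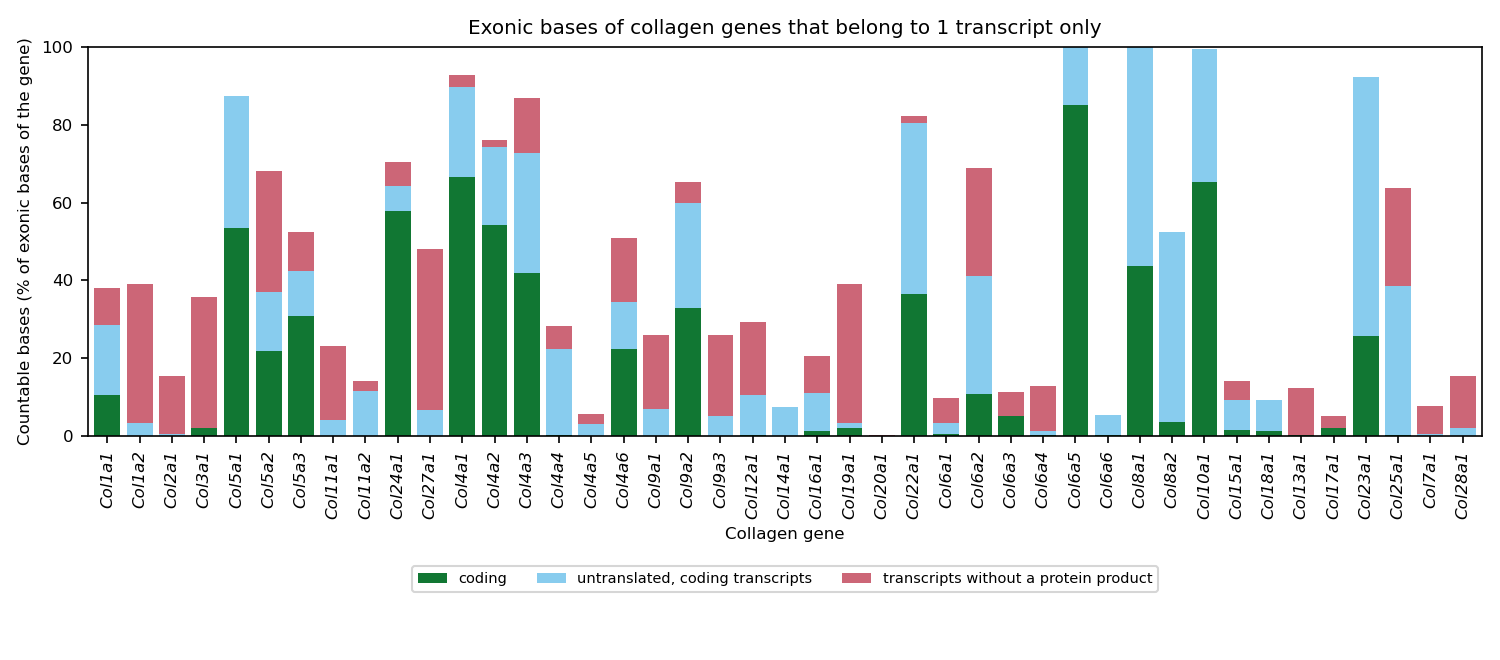
Countable bases of each of the 43 collagen genes as a percentage of its exonic bases (y axis), split into coding bases, untranslated bases of coding transcripts and bases of transcripts without a protein product. Col6a5, Col8a1 and Col10a1 (99.4%) were almost wholly countable, and Col20a1 had almost no countable base.

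The libraries held between 10472117 and 15650518 counts. Between libraries of the same age, counts of genes with at least 20 counts varied beyond counting error, with chi-square values per degree of freedom of 16.2 for mature and 34.6 for elderly mice. Markers of LEPR+ stromal cells were high at both ages, with a summed level of 29984 and 30610.0 CPM (normalised counts scaled to a common library size of 1000000) in mature libraries 1 and 2 and 18736 and 26961 CPM in elderly libraries 1 and 2. Lepr itself was at 6385, 5636, 4106 and 5787 CPM. None of the 10 LEPR+ markers was called by edgeR or DESeq2, and 2 (Cxcl12 and Ebf3) were lower at an unadjusted p under 0.05. All 10 had a fitted change below 0, with a median of −0.31 on the log2 scale. For 5 of them both elderly libraries lay below both mature ones, as for 18.0% of all genes. Blood cell RNA was present in spite of the sort. Called higher in elderly libraries were 5 of 7 tested erythroid markers (Klf1, Car1, Car2, Epor and Slc4a1) and 6 of 9 neutrophil markers (Elane, Ltf, Ngp, S100a8, Mmp8 and Ly6g). The same held for 4 of 8 macrophage markers (Mrc1, C1qa, C1qb and C1qc) and 1 of 8 B-lineage and plasma cell markers (Igj). Among all genes tested, 2.28% were called higher and 0.450% lower, and these shares apply to each marker list below. Other members went the opposite way: Ebf1 and Sdc1 of the B-lineage list were lower at an unadjusted p under 0.05 in edgeR. The macrophage marker Cd68 lay lower in both elderly libraries. None of 7 megakaryocyte markers was called by edgeR or DESeq2 or had an unadjusted p under 0.05. The summed erythroid level was 309 and 132 CPM in mature and 1160.3 and 1034 CPM in elderly libraries, and the summed neutrophil level 2109.8 and 1208 CPM against 4498 and 4464 CPM. The macrophage sum was 3516 and 3294 against 2005 and 3441 CPM, at least 97.4% of it Vcam1, which is also on the LEPR+ list. The B-lineage sum was 822 and 723 against 539 and 675 CPM, at least 77.2% of it Ebf1. In bulk RNA, fewer cells of a type and less RNA per cell cannot be told apart, and the part of these cells in the results below was not tested.

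Collagen RNA was abundant. The 43 genes together made up 9698 and 10496 CPM in mature libraries 1 and 2 and 6644 and 9099 CPM in elderly libraries 1 and 2, so that both elderly sums lay below both mature sums. Col4a1 alone contributed between 29.3% and 37.5% of this sum, and the 5 leading genes Col4a1, Col5a1, Col4a2, Col8a1 and Col6a2 between 75.4% and 83.5%. To compare genes with each other, CPM was divided by the countable length. On this scale Col4a1 led with a mean over the 4 libraries of 489 CPM per kb, followed by Col4a2 (240.2), Col8a1 (205), Col5a1 (188), Col1a1 (165), Col6a2 (91.1), Col5a3 (87.2) and Col5a2 (54.3). The order differed between the ages: Col1a1 lay below Col4a2, Col8a1, Col5a1 and Col6a2 in the mean of the mature libraries (114 CPM per kb) and next to Col4a1 (383) in that of the elderly libraries (216). The leading genes of the remaining classes were Col12a1 (25.0 CPM per kb) for the FACITs, Col23a1 (20.8) for the transmembrane collagens, Col18a1 (6.31) for the multiplexins and Col7a1 (0.331) for the anchoring fibril group. In this order Col4a1 lay above Col4a2 in each library, while Col4a2, Col8a1, Col5a1 and Col1a1 overlapped with their neighbours between libraries. The scale understates genes such as Col1a2 (24.3 CPM per kb), of whose 4733 countable bases 4338 lie in transcripts without a protein product.

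**Figure D2:**
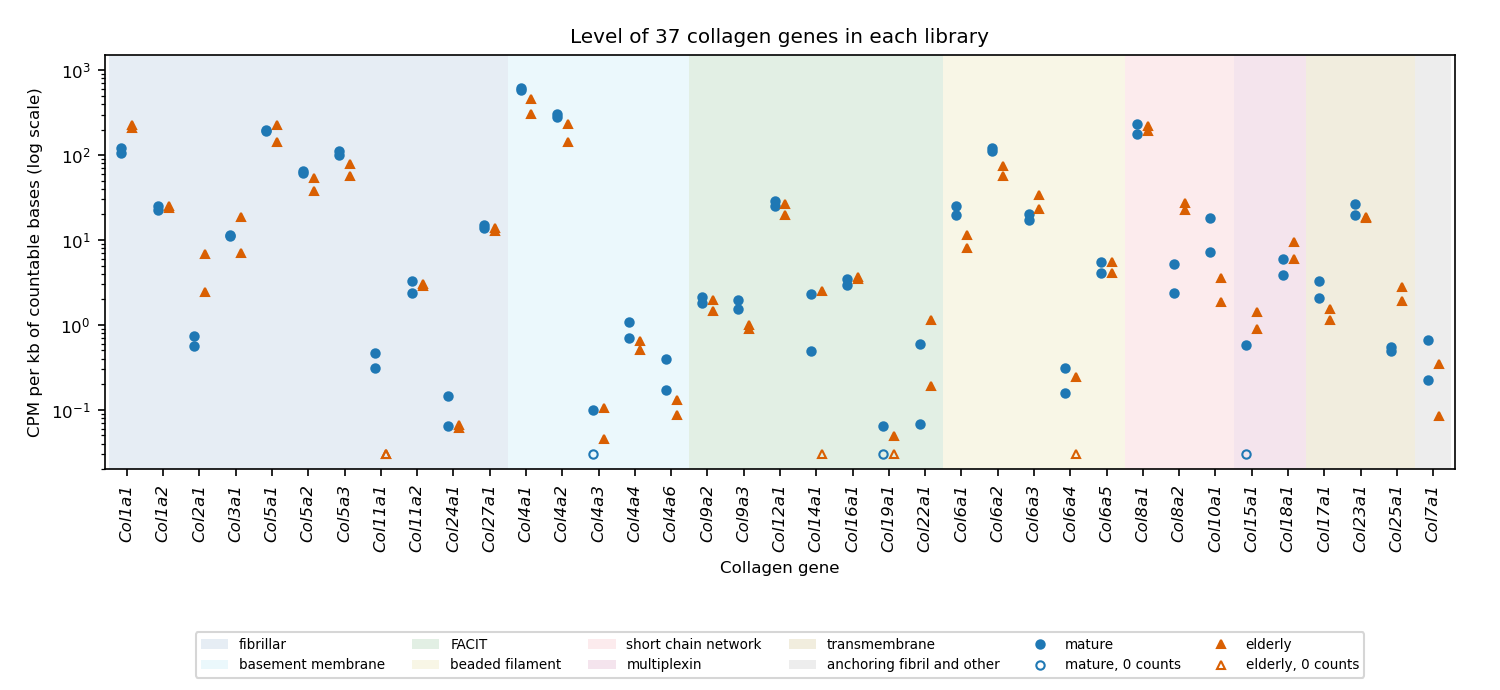
Level of the 37 tested collagen genes in each of the 4 libraries, in CPM per kb of countable bases on a log axis (y), grouped by class. Circles are mature and triangles elderly libraries, and open symbols at the bottom mark 0 counts. Levels span from 489 CPM per kb for Col4a1 to 0.0283 for Col19a1 as means over libraries.

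The question of the design is which of these genes differ between the ages. Of the 43 genes, 37 had more than 2 counts in all and were tested with edgeR's quasi-likelihood test over all 21340 such genes, and a gene with a Benjamini-Hochberg adjusted p under 0.05 is said to be called. Col1a1, Col2a1, Col8a2 and Col25a1 were called higher and Col10a1 was called lower in elderly libraries. These 4 are 10.8% of the tested collagen genes against 2.28% called higher among all genes tested, and the 1 lower call is 2.70% against 0.450%. Calls in either direction made up 13.5% of the collagen genes and 2.73% of all genes. The fitted change was above 0 in 14 and below 0 in 23 collagen genes, with a median of −0.2 on the log2 scale beside 0.02 over all genes. For 7 of the 37 genes the elderly libraries both exceeded the mature ones (18.9%, against 22.9% of all genes), and for 14 both were lower (37.8%, against 18.0%). The LEPR+ markers leaned the same way, with both elderly libraries lower for 5 of 10. With 2 libraries per age, the collagen calls depend on both elderly libraries. Without elderly library 1 no collagen gene was called, and 37 genes higher and 4 lower were called in all. Without elderly library 2 no gene was called by edgeR, with 1638 genes at an unadjusted p under 0.05, among them 5 collagen genes higher and 9 lower.

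**Figure D3:**
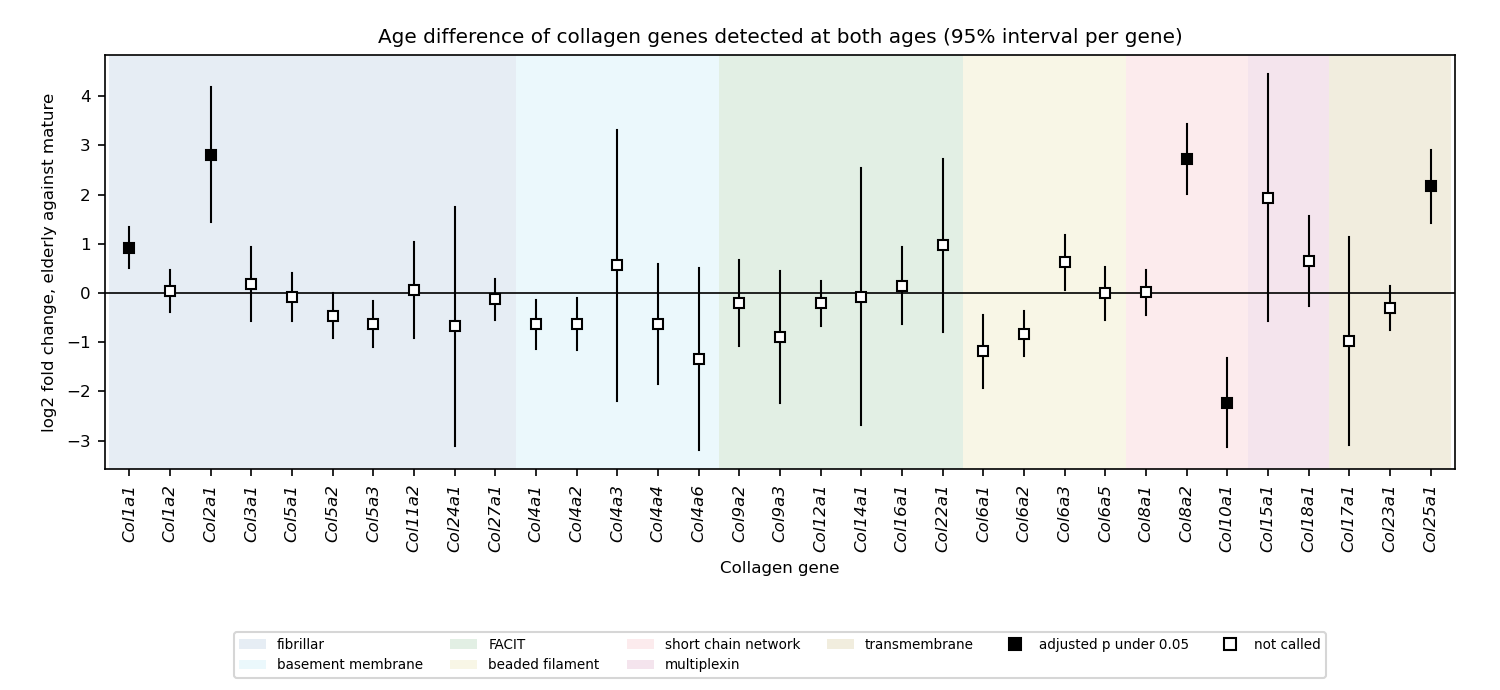
Log2 fold change of elderly against mature libraries (y axis) from edgeR's quasi-likelihood fit for collagen genes with more than 3 counts in a library of each age, with a 95% interval per gene that is not adjusted for the number of genes. Filled squares are the 5 called genes, of which Col10a1 alone lies below 0.

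Among the short-chain collagens, the chains of type VIII differed. Col8a2 (ENSMUSG00000056174.7, mm9 chr4:125964037-125991574, plus strand) encodes the alpha-2 chain of type VIII collagen, a lattice former known from the corneal basement layer and vessel walls. It was at 5.59 and 12.2 CPM in mature libraries 1 and 2 (65 and 142 counts) and at 63.9 and 53.4 CPM in elderly libraries 1 and 2 (711 and 809 counts). Both elderly libraries lay far above both mature ones. The mean rose from 8.89 ± 4.65 to 58.6 ± 7.41 CPM (SD, n = 2 each), a log2 fold change of 2.72 (SE 0.330, 95% interval 2.01 to 3.43, edgeR adjusted p = 0.00110). Without mature library 2 the log2 fold change was 3.34, and without mature library 1 it was 2.27. All its counts came from coding transcripts, although 2190 of its 2355 countable bases are untranslated. Its partner Col8a1 (ENSMUSG00000068196.4, chr16:57624371-57754850, minus strand), the alpha-1 chain, was at 902, 1189, 969 and 1131 CPM in the same order of libraries. Its groups overlapped, with a log2 fold change of 0.01 (95% interval −0.45 to 0.46, edgeR adjusted p = 0.995). The count ratio of Col8a2 to Col8a1 was 0.00620 and 0.0102 in mature and 0.0659 and 0.0472 in elderly libraries, so the alpha-2 chain stayed the minor RNA at both ages by this measure.

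Since these chains differed in response, the 250 bases before their annotated starts are shown, with GGGCGG, the core of the binding sequence of Sp1-like factors, in capitals on either strand.
Col8a2 (chr4:125963787-125964036, plus strand): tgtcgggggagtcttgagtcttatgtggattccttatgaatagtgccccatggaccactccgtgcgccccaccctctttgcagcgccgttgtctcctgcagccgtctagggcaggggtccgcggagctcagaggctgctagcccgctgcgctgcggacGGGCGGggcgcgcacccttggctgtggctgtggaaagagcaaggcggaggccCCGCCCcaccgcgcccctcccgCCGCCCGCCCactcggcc
Col8a1 (chr16:57754851-57755100, minus strand): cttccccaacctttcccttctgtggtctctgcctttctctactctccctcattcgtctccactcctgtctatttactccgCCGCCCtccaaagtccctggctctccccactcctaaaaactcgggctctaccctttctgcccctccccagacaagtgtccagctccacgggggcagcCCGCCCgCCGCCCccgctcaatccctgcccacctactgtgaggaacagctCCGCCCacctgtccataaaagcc
Both windows held 4 matches, which in Col8a2 include a pair that overlaps, and neither held TATAAA or CCAAT. The sequence GGGCGG was found on either strand in 39.8% of 22238 such windows, while TATAAA was present in 12.4% and the sequence CCAAT in 34.4%. A match is a description of the letters only.

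The other short chain, type X, moved the opposite way. Col10a1 (ENSMUSG00000039462.4, chr10:34109787-34116891, plus strand), the collagen of hypertrophic cartilage, was at 22.4 and 56.7 CPM in mature libraries 1 and 2 (260 and 661 counts) and at 11.1 and 5.81 CPM in elderly libraries 1 and 2 (124 and 88 counts). The mature libraries were themselves far apart, and both lay above both elderly ones. The mean fell from 39.5 ± 24.3 to 8.47 ± 3.77 CPM (SD, n = 2 each), a log2 fold change of −2.23 (SE 0.419, 95% interval −3.14 to −1.33, edgeR adjusted p = 0.0130). The call was lost with edgeR's exact test at a dispersion of 0.2 (adjusted p = 0.0913) and with a robust quasi-likelihood fit (adjusted p = 0.158). Without mature library 2 the log2 fold change was −1.46, and without elderly library 1 it was −2.78. Its only transcript is 99.4% countable, with 2040 coding bases among them. The 250 bases before its start are shown because they differ from those of the type VIII genes, with the single TATAAA in capitals and no GGGCGG or CCAAT.
Col10a1 (chr10:34109537-34109786, plus strand): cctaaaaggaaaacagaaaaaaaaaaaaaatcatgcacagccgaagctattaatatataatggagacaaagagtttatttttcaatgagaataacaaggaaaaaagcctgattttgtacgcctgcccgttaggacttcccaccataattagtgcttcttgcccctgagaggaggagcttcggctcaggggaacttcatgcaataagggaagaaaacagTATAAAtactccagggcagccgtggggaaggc

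Among the fibrillar collagens, the alpha-1 chain of type I rose and its partner did not pass the test. Col1a1 (ENSMUSG00000001506.9, chr11:94797538-94814356, plus strand) was at 265 and 304 CPM in mature libraries 1 and 2 (3084 and 3548 counts) and at 559.5 and 520.4 CPM in elderly libraries 1 and 2 (6229 and 7887 counts). The libraries of each age were close to each other and the ages did not overlap. The mean rose from 285 ± 27.4 to 540.0 ± 27.7 CPM (SD, n = 2 each), a log2 fold change of 0.92 (SE 0.195, 95% interval 0.5 to 1.34, edgeR adjusted p = 0.0235). Coding transcripts held 97.7% of the counts, and from these alone the change was 0.86 (SE 0.181, edgeR adjusted p = 0.0112). The exact test at a dispersion of 0.2 did not call it (adjusted p = 1.00), nor did any fit without 1 of the 4 libraries, in which the log2 fold change lay between 0.83 and 0.98 and the adjusted p between 0.107 and 0.602.

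Col1a2 (ENSMUSG00000029661.9, chr6:4454814-4491543, plus strand), which encodes the alpha-2 chain of type I, was at 106, 120.3, 113 and 120.3 CPM in mature libraries 1 and 2 and elderly libraries 1 and 2. Its ages overlapped, with a log2 fold change of 0.04 (95% interval −0.38 to 0.46, edgeR adjusted p = 0.970). None of its coding bases was countable. Its coding transcripts gave 119, 94, 59 and 148 counts in the 4 libraries, from 395 untranslated bases, and on these alone the log2 fold change was −0.34 (edgeR adjusted p = 0.768). The count ratio of Col1a1 to Col1a2 was 2.49 and 2.53 in mature and 4.95 and 4.33 in elderly libraries, a difference of 0.88 in log2 ratio that had p = 0.333 in a 2-sided exact permutation test, the smallest value that 2 libraries against 2 allow. The ratio compares a gene read mainly through coding transcripts with a gene read mainly through other transcripts.

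The promoter window of Col1a1 is shown since this gene had the most counts of those called, with matches to GGGCGG and CCAAT on either strand in capitals.
Col1a1 (chr11:94797288-94797537, plus strand): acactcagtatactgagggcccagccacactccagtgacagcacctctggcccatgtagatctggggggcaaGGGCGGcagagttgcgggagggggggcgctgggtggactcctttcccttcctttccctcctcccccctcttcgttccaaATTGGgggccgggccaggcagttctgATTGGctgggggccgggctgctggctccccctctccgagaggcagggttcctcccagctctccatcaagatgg
It held 2 matches to CCAAT, both on the strand opposite to the gene, 1 match to GGGCGG and no TATAAA.

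Osteoblast markers, which mark the main producers of type I collagen in bone, did not move in 1 direction. Of 11 tested, Phex was called higher (58.7 and 44.5 against 119 and 164 CPM, log2 fold change 1.46, edgeR adjusted p = 0.00478) and Ibsp, the gene for bone sialoprotein, was called lower (6596 and 5909 against 1445 and 3337 CPM, log2 fold change −1.39, edgeR adjusted p = 0.0326). DESeq2 called 1 gene of the list higher and none lower, so that the Ibsp call was lost, and the exact test called none. At an unadjusted p under 0.05 in edgeR, 1 was higher (Phex) and 2 were lower (Ibsp and Runx2). The summed level of the list, of which Ibsp was 82.6% to 96.1%, was 6861 and 6189 CPM in mature and 1750.0 and 3761 CPM in elderly libraries. Bglap, the osteocalcin gene, had 1 to 5 counts in each library. The part of osteoblast RNA in the Col1a1 result was not tested.

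The remaining fibrillar genes showed no call apart from Col2a1. Type V collagen, which sets the diameter of type I fibrils, was the most abundant of the class: Col5a1 was at 1414 and 1465 CPM in mature and 1056 and 1653 CPM in elderly libraries, with overlap between the ages (log2 fold change −0.09, edgeR adjusted p = 0.943). Col5a2 and Col5a3, its partner chains, lay lower in both elderly libraries without passing the test. Col5a2 was at 402 and 419 against 248 and 347 CPM (log2 fold change −0.46, 95% interval −0.92 to −0.01), and Col5a3 at 402 and 356 against 204 and 284 CPM (log2 fold change −0.63, 95% interval −1.1 to −0.17). Col3a1, the chain of type III, which lies 24614 bases from Col5a2 on chromosome 1 with the gene ends facing each other, was at 33.2 and 34.0 against 20.8 and 55.3 CPM, the elderly libraries lying on either side of the mature ones. Over the 11 tested fibrillar genes the median log2 fold change was −0.09, with 2 called higher and none lower by edgeR, 3 lower at an unadjusted p under 0.05 and none lower by DESeq2.

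**Figure D4:**
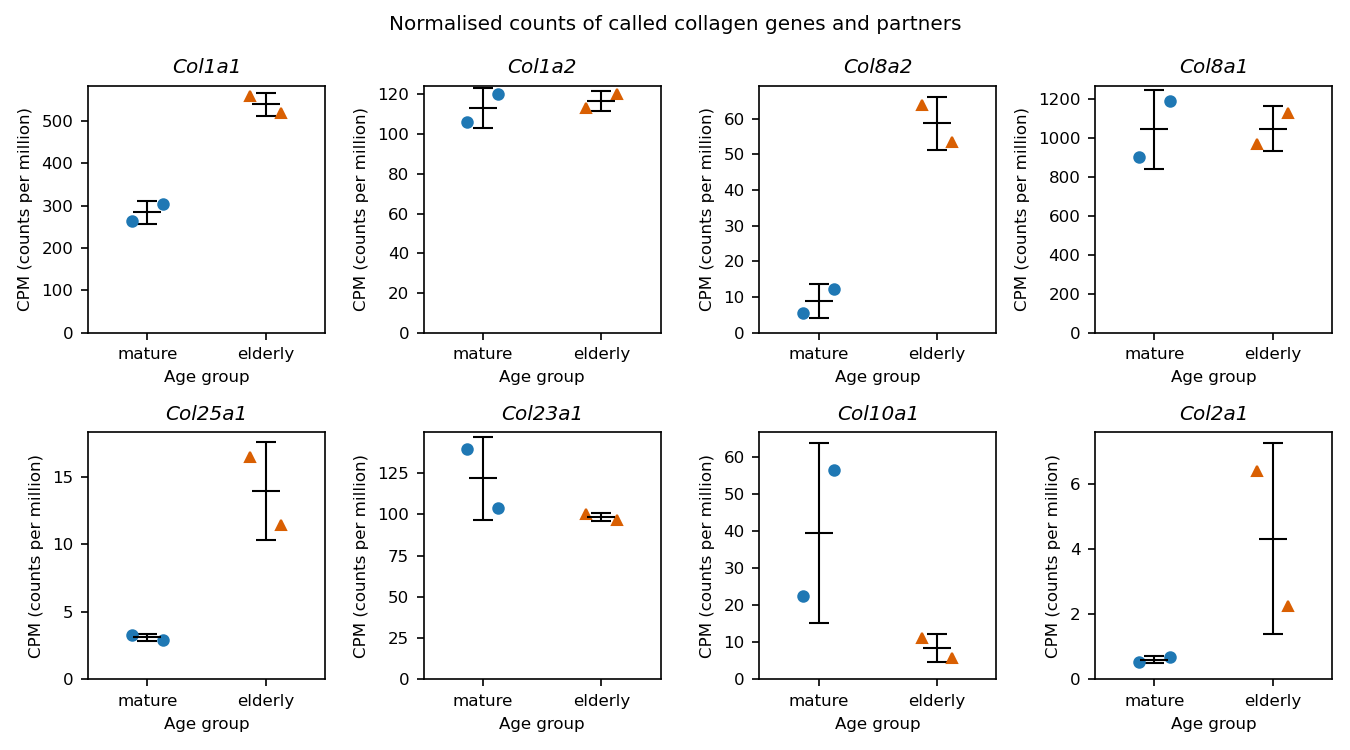
CPM per library (y axis, from 0) of the 5 called collagen genes and of Col1a2, Col8a1 and Col23a1, the abundant partner or class member of 3 of them. Points are libraries, and the bars give the mean and SD of the 2 libraries per age. Both elderly libraries lie above both mature ones for Col1a1, Col8a2, Col25a1 and Col2a1 and below for Col10a1 and for Col23a1, which was not called, while Col1a2 and Col8a1 overlap.

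Col2a1 (ENSMUSG00000022483.9, chr15:97806033-97835155, minus strand), the main collagen of cartilage, was called higher on few counts that did not come from its coding transcripts. It had 6 and 8 counts in mature libraries 1 and 2 and 71 and 34 in elderly libraries 1 and 2, or 0.516, 0.686, 6.38 and 2.24 CPM. Elderly library 1 was well above elderly library 2, and both were above the mature libraries. The mean rose from 0.601 ± 0.120 to 4.31 ± 2.92 CPM (SD, n = 2 each), a log2 fold change of 2.81 (SE 0.633, 95% interval 1.44 to 4.18, edgeR adjusted p = 0.0324). Without elderly library 1 the log2 fold change was 1.87 and was not called (adjusted p = 0.515), and without elderly library 2 it was 3.38 (adjusted p = 0.602). Every count lay in transcripts without a protein product, which hold 894 of its 923 countable bases, and its coding transcripts had 0 counts in each library. The value therefore says nothing of the coding message.

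Cartilage collagens as a list of 7 genes held 6 tested genes, of which Col2a1 was called higher and Col10a1 lower, with a median log2 fold change of −0.54. Col11a1, a chain of the type XI collagen of cartilage fibrils, had 12 and 8 counts in the mature and 0 in both elderly libraries. With 3 counts as the floor per library, it was at least 3.68-fold lower in elderly libraries, and it was not called in the main test (edgeR adjusted p = 0.122) but was called by the exact test, by the robust fit and without a filter on low counts. Only 15% of its counts came from coding transcripts. Col11a2, a further type XI chain, was at 2.32, 3.17, 2.96 and 2.77 CPM and overlapped between ages. The type IX genes Col9a2 (3.70 and 4.29 against 2.96 and 3.96 CPM) and Col9a3 (1.98 and 1.54 against 0.898 and 0.990 CPM) were low, and Col9a1 had 0 counts throughout with no countable coding base.

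Among 8 tested chondrocyte markers none was called higher, and Acan and Hapln1, a proteoglycan of cartilage and its link protein, were called lower. The list was split: both elderly libraries lay above both mature ones for 3 markers (Sox9, Sox5 and Sox6). They lay below for 3 others (Acan, Hapln1 and Matn3). Acan fell from 10.1 and 14.2 to 0.449 and 0.726 CPM (log2 fold change −4.31, edgeR adjusted p = 3.2e-04). Hapln1 had 56 and 132 counts in the mature and 0 in both elderly libraries (edgeR adjusted p = 6.6e-04). Matn1, with 2001 countable bases, had 2 counts in all, while Comp and Ihh were at 0 with only 14 and 23 countable bases, which is no measurement. The summed level of the list was 85.1 and 109 CPM in mature and 97.9 and 99.0 CPM in elderly libraries, between 61.1% and 85.0% of it Sox9. The part of cartilage RNA in the Col10a1 result was not tested.

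Type IV collagen lay lower in elderly libraries without passing the test. Col4a1 (ENSMUSG00000031502.9, chr8:11198423-11312826, minus strand) was at 3641 and 3886 CPM in mature and 1946 and 2895 CPM in elderly libraries, with means of 3763 ± 173 and 2421 ± 671 CPM (SD, n = 2 each). Col4a2 (ENSMUSG00000031503.7, chr8:11312805-11449287, plus strand) was at 1404 and 1536 against 718 and 1182 CPM, with means of 1470.4 ± 93.3 and 950.1 ± 329 CPM. For both genes the ages did not overlap, and elderly library 1, in which the LEPR+ markers also had their lowest sum, was the lowest. The log2 fold change was −0.64 (95% interval −1.13 to −0.15, edgeR adjusted p = 0.232) for Col4a1 and −0.63 (95% interval −1.15 to −0.11, edgeR adjusted p = 0.283) for Col4a2. Without the filter on low counts both were called, with adjusted p of 0.0229 and 0.0306.

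These genes encode the chains of the main basement membrane trimer and are read in opposite directions from starts that overlap by 22 bases. The shared bases, with GGGCGG in capitals, are shown because they lie in exons of both genes and so are not countable as defined here. That definition ignores the strand, and the strand setting of the counting is not given.
Col4a1 and Col4a2 (chr8:11312805-11312826, plus strand): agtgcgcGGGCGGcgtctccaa
The count ratio of Col4a1 to Col4a2 was 2.59 and 2.53 in mature and 2.71 and 2.45 in elderly libraries. The ratio overlapped between the ages, with a log2 difference of 0.01 (2-sided exact permutation p = 1.00), and it varied less between libraries than the level of either gene.

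The rarer type IV chains are those of kidney, lung and other specialised membranes and lie in pairs with the same head-to-head order. Col4a4 and Col4a3 on chromosome 1 have 71 bases between their starts, and Col4a6 and Col4a5 on the X chromosome 1308 bases. Col4a4 was at 1.64, 2.57, 1.53 and 1.19 CPM and Col4a3 at 0, 0.857, 0.898 and 0.396 CPM in mature libraries 1 and 2 and elderly libraries 1 and 2. Col4a6 was at 0.689, 1.63, 0.359 and 0.528 CPM, and Col4a5, with 5.66% of its exonic bases countable and no coding base, had 0 counts. All of them were more than 100 times lower than Col4a2 in CPM. In the class, none of 5 tested genes was called by edgeR, DESeq2 or the exact test, 2 were lower at an unadjusted p under 0.05, and the median log2 fold change was −0.64.

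The type VI chains, which form beaded filaments at the cell surface, differed among themselves in the fitted change, and none was called in the main test. Col6a2 was at 649 and 686 CPM in mature and 322 and 432 CPM in elderly libraries, with means of 668 ± 26.1 and 377 ± 77.7 CPM (SD, n = 2 each). The ages did not overlap, and the log2 fold change of −0.83 (95% interval −1.28 to −0.37) narrowly missed the threshold with an edgeR adjusted p of 0.0576. DESeq2 called it (adjusted p = 0.00467), as did the robust fit, the fits without a filter, without TMM or on protein-coding genes alone, and the fit with the replicate number as a block (adjusted p = 0.00659). From coding transcripts alone, which held 87.2% of its counts, it was called as well, with a log2 fold change of −0.88 (SE 0.195, edgeR adjusted p = 0.0158).

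Col6a1 lies on chromosome 10 on the same strand as Col6a2, 85161 bases away, and was read through 426 bases, 9.7% of its exonic length. It was at 8.43 and 10.6 CPM in mature and 3.41 and 4.88 CPM in elderly libraries, with a log2 fold change of −1.19 (edgeR adjusted p = 0.111). It was called lower with the replicate block, without a filter, without mature library 1 and from coding transcripts alone (edgeR adjusted p = 0.0475). Col6a3, the largest chain, was at 27.0 and 22.8 CPM in mature and 45.4 and 31.1 CPM in elderly libraries, and here both elderly libraries were the higher ones (log2 fold change 0.62, 95% interval 0.06 to 1.17, edgeR adjusted p = 0.356). The count ratio of Col6a3 to Col6a2 was 0.0416 and 0.0332 in mature and 0.141 and 0.0721 in elderly libraries, a log2 difference of 1.44 (2-sided exact permutation p = 0.333).

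The 3 further type VI genes lie side by side on chromosome 9, 27984 and 28810 bases apart. Col6a5, whose only transcript is wholly countable, was at 51.5, 37.7, 37.5 and 50.7 CPM and did not separate the ages. Its neighbours Col6a4, with 4, 2, 3 and 0 counts, and Col6a6, with 0 counts and 5.29% countable bases, gave no measurement of use.

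**Figure D5:**
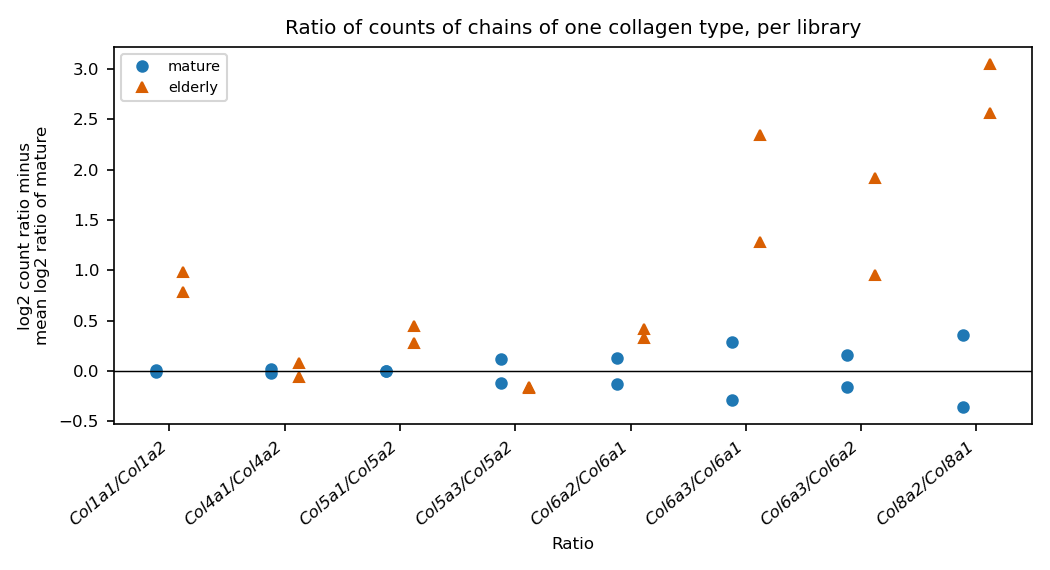
Log2 ratio of the counts of chains of the same collagen type in each library, minus the mean log2 ratio of the mature libraries (y axis). Circles are mature and triangles elderly libraries. The ratio of Col4a1 to Col4a2 stays near 0 at both ages, and those of Col8a2 to Col8a1, Col6a3 to Col6a2 and Col1a1 to Col1a2 lie above it in both elderly libraries.

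Over the 9 chain ratios computed, 8 had both elderly libraries on 1 side of both mature ones and an exact permutation p of 0.333, and that of Col4a1 to Col4a2 did not. Since no ratio can reach 0.05 with 2 libraries per age, these are values without a call. The ratio of Col5a1 to Col5a2 was 3.51 and 3.50 in mature and 4.25 and 4.77 in elderly libraries. That of Col6a2 to Col6a1 was 77.0 and 64.5 against 94.3 and 88.4.

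The transmembrane collagens, whose chains are anchored in the cell membrane, held 1 call. Col25a1 (ENSMUSG00000058897.8, chr3:129883809-130302795, plus strand), known from neurons and from the innervation of muscle, was at 3.27 and 2.92 CPM in mature libraries 1 and 2 (38 and 34 counts) and at 16.5 and 11.4 CPM in elderly libraries 1 and 2 (184 and 173 counts). The mature libraries were nearly equal and both elderly libraries were well above them. The mean rose from 3.09 ± 0.251 to 14.0 ± 3.62 CPM (SD, n = 2 each), a log2 fold change of 2.17 (SE 0.343, 95% interval 1.43 to 2.91, edgeR adjusted p = 0.00444). Coding transcripts, whose countable bases are 26 coding and 3556 untranslated, held 82.8% of the counts and gave a log2 fold change of 2.08 (edgeR adjusted p = 0.00322). The exact test at a dispersion of 0.2 did not call it (adjusted p = 0.121).

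Nerve-associated markers were checked beside Col25a1. Of 7 tested Schwann cell markers, Mbp was called higher (11.9 and 9.86 against 43.6 and 39.6 CPM, log2 fold change 1.93, edgeR adjusted p = 0.00158), while the defining gene Sox10, with 176 countable bases, had at most 2 counts in any library. The summed level of the list was 86.3 and 71.0 CPM in mature and 150.4 and 142 CPM in elderly libraries. Its part in the Col25a1 result was not tested. Col23a1, the most abundant transmembrane collagen, had 1624 and 1211 counts in mature and 1113 and 1465 counts in elderly libraries, or means of 122 ± 25.4 and 98.3 ± 2.34 CPM (SD, n = 2 each, log2 fold change −0.31, edgeR adjusted p = 0.670). Col17a1, a chain of the epidermal anchoring complex with 5% countable bases, had between 5 and 11 counts in each library.

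FACIT collagens were carried by Col12a1, a fibril-surface collagen of bone, tendon and periosteum. It was at 111 and 127 CPM in mature and 87.9 and 117 CPM in elderly libraries, with overlap between the ages (log2 fold change −0.21, 95% interval −0.67 to 0.25, edgeR adjusted p = 0.807). None of the 7 tested FACIT genes was called by edgeR, DESeq2 or the exact test or had an unadjusted p under 0.05, and their median log2 fold change was −0.2. Col14a1, of whose exonic bases 7.45% are countable, was at 0.258, 1.20, 0 and 1.32 CPM, and Col16a1 was at 4.13, 4.80, 5.12 and 4.82 CPM. Col19a1, which faces Col9a1 with its gene end at a distance of 9151 bases, had 2, 0, 0 and 2 counts.

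The multiplexins, which release the fragment endostatin or a relative of it, were low. Col18a1, read through 9.31% of its exonic bases, was at 2.50, 3.94, 3.86 and 6.20 CPM in mature libraries 1 and 2 and elderly libraries 1 and 2, and Col15a1 at 0.516, 0, 1.26 and 0.792 CPM. Neither was called. Col7a1, the anchoring fibril collagen of skin, had 2, 6, 3 and 1 counts with 7.56% of its exonic bases countable. The 6 genes not tested were Col4a5, Col6a6, Col9a1, Col13a1, Col20a1 and Col28a1. Col28a1 had 1 count and the other 5 had 0, and none of the 6 had more than 14 countable coding bases, so that their absence from the counts is no sign of absence from the cells.

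Endothelial, mural and connective tissue cells also make the collagens of basement membranes and fibrils. Of 8 tested endothelial markers Flt4 was called higher (4.48 and 6.00 against 18.1 and 16.8 CPM), and DESeq2 called 2 higher. At an unadjusted p under 0.05 in edgeR, 4 were higher and none was lower. For these 4 (Flt4, Cdh5, Stab2 and Plvap), both elderly libraries lay above both mature ones. Pecam1, the gene of the CD31 used in the sort, had 156 and 292 counts in mature against 167 and 102 counts in elderly libraries. The summed level of the list was 34.0 and 41.2 CPM in mature and 51.6 and 53.0 CPM in elderly libraries. Of 7 tested mural markers Acta2 was called higher (1.72 and 4.03 against 12.2 and 8.12 CPM), and the summed level was 2859 and 3049.9 CPM in mature and 2448 and 3877 CPM in elderly libraries, between 94.0% and 96.1% of it Notch3. Tek and Myh11 were at 0, but only 58 and 39 of their bases were countable. Of 8 tested markers of periosteal and tendon fibroblasts Ly6a was called higher (9.55 and 13.8 against 41.4 and 37.3 CPM). At an unadjusted p under 0.05 in edgeR, 2 of this list were higher (Ly6a and Pi16). Mkx, its leading gene, was lower at that level (47.4 and 56.1 against 24.3 and 40.6 CPM). The summed level was 98.3 and 104 CPM in mature and 96.0 and 119 CPM in elderly libraries. The part of these cells in the collagen levels was not tested.

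Genes that act on collagens were counted in 4 lists, to be set beside the 2.28% of all genes tested that were called higher and the 0.450% called lower. Of 19 tested genes for collagen synthesis and secretion, such as the prolyl hydroxylase subunit P4hb and the chaperone Serpinh1, none was called by edgeR, DESeq2 or the exact test or had an unadjusted p under 0.05, and the median log2 fold change was −0.19. Of 14 tested genes for procollagen processing and cross-linking, Adamts2, the proteinase that removes the amino-terminal propeptide, was called lower. It was at 2926 and 2864 CPM in mature and 1181 and 1663 CPM in elderly libraries, a log2 fold change of −1.03 (SE 0.218, edgeR adjusted p = 0.0240). The call was lost in the exact test (adjusted p = 0.964) and in each fit without 1 of the libraries (adjusted p between 0.0715 and 0.602). In this list 12 of the 14 tested genes had a fitted change below 0, with a median log2 fold change of −0.42. For 10 of the 14 both elderly libraries lay below both mature ones, against 18.0% of all genes. At an unadjusted p under 0.05 in edgeR, 3 were lower (Adamts2, Bmp1 and Tll1) and none was higher. The cross-linking enzyme Lox, 1 of the 2 genes with a fitted change above 0, was at 1272, 1331, 1142 and 1677 CPM.

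Of 10 tested collagen receptors, Itga2, the alpha-2 subunit of an integrin that binds collagen, was called higher, from 12.1 and 9.78 to 64.5 and 49.6 CPM (log2 fold change 2.38, SE 0.259, edgeR adjusted p = 6.0e-04). At an unadjusted p under 0.05 in edgeR, 2 receptors were higher (Itga2 and Gpr56) and 2 were lower (Itga1 and Ddr1). The exact test at a dispersion of 0.2 did not call Itga2 (adjusted p = 0.0542). Without elderly library 1 its log2 fold change was 2.16, and without elderly library 2 it was 2.56. Itga2 is also made by megakaryocytes and platelets, whose summed marker level was 24.3 and 271 CPM in mature and 118 and 196 CPM in elderly libraries, and their part in this result was not tested. Of 7 tested proteinases that cleave collagen, 3 were called higher, against 2.28% of all genes tested. Mmp2, a gelatinase of stromal cells, rose from 92.8 and 91.1 to 246 and 280.3 CPM (log2 fold change 1.52, SE 0.198, edgeR adjusted p = 0.00158). Mmp9 rose from 57.1 and 42.6 to 154 and 168 CPM (log2 fold change 1.69, edgeR adjusted p = 0.00140) and Mmp8 from 98.4 and 54.1 to 163 and 217 CPM (log2 fold change 1.32, edgeR adjusted p = 0.0203). Without mature library 2 the change of Mmp8 was 0.91 and was not called (adjusted p = 0.201). Mmp8 and Mmp9 are known products of neutrophils, whose other markers were higher in the same libraries, and the part of these cells was not tested. Mmp13, a collagenase of bone and cartilage, was at 1054 and 1234 CPM in mature and 769 and 654 CPM in elderly libraries (log2 fold change −0.69, edgeR adjusted p = 0.115), and DESeq2 called 1 gene of this list lower.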

How the data were processed

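Lin−LEPR+ RNA of mature and elderly mice was analysed in 4 libraries, grouped by the titles of the labels. The authors trimmed reads (cutadapt), aligned them to mm9 (HISAT2) and counted them (featureCounts). The counts they deposited are whole reads per Ensembl transcript without normalization. The strand and overlap settings of the counting are not given in the sources used here. Of 95883 transcripts, 388 could not be matched to GENCODE M1 (NCBIM37) and held 0.0785% to 0.0888% of the counts.

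Transcript counts were summed per symbol. Genes with more than 2 counts in all were normalized by TMM (factors 0.969 to 1.06) and compared with the 2-sided quasi-likelihood test of edgeR 4.0.16 (biological coefficient of variation 0.262, no covariate, Benjamini-Hochberg adjustment) in R 4.3.3, with limma 3.58.1. DESeq2 1.42.0 and the exact test of edgeR were alternatives. SE was the log2 fold change over the square root of F, and 95% intervals used its degrees of freedom. The code was tested on simulated data. CPM are counts scaled to 1000000 per TMM-scaled library. Genes with 3 counts or fewer per library of an age were taken as not detected, and floors cover counting error only. Promoters and coding sequences were read from NCBIM37 and GENCODE M1, and motifs were searched on both strands with overlaps counted.

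Values in every library are given for called genes, for the leading gene of each class, for neighbouring collagen genes, for genes under 10% countable and for genes not detected at an age. Pathway genes were named where called, and marker genes where called or where a defining marker was at 0. P4hb, Serpinh1, Lox, Mmp13, Bglap, Lepr and any further gene named were chosen after their values were seen. The gene rule, the lists and the tests were chosen with earlier results of these data known. Col21a1 and Col26a1, the latter annotated as Emid2, were not analysed here, Mia3, Snorc, Mzb1 and Hbb-bt of the lists were not found under these symbols, and 1 further marker gene each of erythroid and of Schwann cells is not reported here. The fits tried as alternatives used other tests, filters, scalings, features, a replicate block and fewer libraries.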

Additional observations from a re-analysis of the deposited data

How the results depend on the processing

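The 4 collagen genes called higher were 2 under the exact test and 0 to 4 when 1 library was left out. The 1 called lower was 2 with DESeq2, with the robust fit, with library size alone and on protein-coding genes, 3 with the replicate block and on protein-coding transcripts (an alternative chosen after seeing the data), 7 without a filter and 0 to 2 when 1 library was left out. Col6a2 was in each of these sets of 2, 3 and 7 that used all libraries, and the robust fit called Col11a1 but not Col10a1. Called pathway genes, 4 higher and 1 lower, were 0 and 0 under the exact test and 1 and 0 with an absolute log2 fold change over 2. The lower count was 2 with DESeq2, the block and protein-coding transcripts and 3 without a filter. Left-out libraries gave 0 to 4 higher and 0 to 1 lower.

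The fibrillar median was 0.02 with filterByExpr and −0.25 on protein-coding transcripts, and −0.45 to 0 when 1 library was left out. The cartilage median was −0.22 with filterByExpr, −1.15 on protein-coding transcripts, −0.82 on single transcripts and −0.7 to −0.44 with 1 library left out, and the FACIT median −0.43 to −0.03. Signs turned for Col5a1 (0.18 without elderly library 1, −0.45 without elderly library 2), Col1a2 (−0.04 to 0.09 with 1 library left out, −0.04 without mature library 1, −0.01 without elderly library 2, −0.34 on protein-coding transcripts) and Col8a1 (−0.01 with DESeq2, without a filter and on protein-coding genes, −0.02 with filterByExpr, −0.18 without mature library 1, −0.11 without elderly library 2, −0.05 on protein-coding transcripts). None of these was called, and the cause was not tested.

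Over 14238 genes, the difference between the mature libraries correlated at 0.0421 with that between the elderly libraries, each taken in order of number. This value gave no sign that the numbers pair the libraries, and it cannot exclude such a pairing. The replicate block moved all calls from 487 higher and 96 lower to 970 and 292, and collagen calls to 4 higher and 3 lower. Depth limits genes with few countable bases, and 2 libraries per age limit every test.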
